A study of Mus musculus with 8 samples.

Results

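The receptors described here are 10 membrane proteins of T cells and natural killer (NK) cells that promote or restrain activation: Cd28, Icos, Ctla4, Cd27, Cd96, Cd69, Pdcd1, Lag3, Havcr2 and Cd2. They were chosen by name, not by their signal, from the 19938 genes with a symbol on the array. Earlier results of these data were known when they were chosen. Each of the 10 had exactly 1 probe set. RNA was hybridized to 8 Affymetrix Whole Transcript 1.0ST arrays, 2 for each of 4 groups: CD16/32HI IL-15-/-, CD16/32HI IL-15+/+, CD16/32LO IL-15-/- and CD16/32LO IL-15+/+. Both populations were sorted from the tail tumor of the same mouse, so that the 8 arrays come from 4 mice, aged 14 months in replicate 1 and 12 months in replicate 2. All of these mice, the IL-15+/+ controls included, were TAX-LUC mice, which carry the Tax oncogene of HTLV-1 under the granzyme B promoter, active in cytotoxic lymphocytes, and a luciferase gene under the viral promoter. In the IL-15-/- mice a PGK-Neo cassette replaces part of Il15. The IL-15-/- strain was on C57BL/6 and had been crossed to TAX-LUC mice of mixed C57BL/6 and FVB origin. The labels call the CD16/32HI cells malignant, which the study describes as large granular lymphocytes, and the CD16/32LO cells tumor infiltrating, which the study describes as enriched in neutrophils. The comparison asked which transcripts differ in either population when IL-15 is lost.

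A T cell needs a second signal beside that of its antigen receptor. CD28 and ICOS, which bind CD80, CD86 and the ICOS ligand on antigen presenting cells, give such a signal, as do CD27 of the TNF receptor family and the adhesion molecule CD2. CTLA-4 competes with CD28 for the same ligands, and PD-1 (Pdcd1), LAG-3 and TIM-3 (Havcr2) restrain cells that have been activated, which is why antibodies against several of them are used in cancer therapy. CD96 is shared by T and NK cells and binds the poliovirus receptor CD155, and CD69 appears on lymphocytes soon after activation. TIM-3 is also made by macrophages and dendritic cells. IL-15 is the cytokine on which NK cells and memory CD8+ T cells depend.

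Several properties of the 8 arrays bear on every value below. Values are log2 RMA signals minus the median of the array, so that 0 is the median probe set and a difference of 1 is 2-fold. Array medians ran from 5.62 to 5.93. Exactly equal values showed 3 sets of arrays normalized separately, the 4 arrays of replicate 1, the IL-15+/+ arrays of replicate 2 and the IL-15-/- arrays of replicate 2, so that in replicate 2 genotype and normalization cannot be told apart. In the IL-15-/- mouse of replicate 1, aged 14 months, the difference between the populations ran opposite to that of the other 3 mice. C1qa, a complement gene of macrophages, was at 1.77 in the array labelled CD16/32HI and at 4.84 in that labelled CD16/32LO, Csf3r, a receptor gene of neutrophils, was at 4.83 in the first and at 1.42 in the second of these arrays, and 0 of the 500 probe sets that differed most in the other 3 mice kept their sign. The labels were kept as deposited, and a difference that moved by over 1.5 times, changed sign or gained or lost a call without this mouse is also given without it. Xist lay between 4.16 and 4.82 in IL-15-/- arrays and between -1.73 and -1.21 in IL-15+/+ arrays, so that sex coincides with genotype. The Il15 probe set reads the gene inside and outside the deleted part and cannot check the genotype; it was at 0.40, -0.64, -0.44 and 0.61 in IL-15-/- arrays and at -0.48, -0.44, 0.48 and 1.23 in IL-15+/+ arrays, in each case CD16/32HI before CD16/32LO. No detection calls were available. As a guide to the level of a transcript that is not expected, Xist in IL-15+/+ arrays and the Y-linked genes in IL-15-/- arrays lay between -3.10 and -0.74.

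On the mouse genome Cd28, Ctla4 and Icos lie side by side on chromosome 1 with 0 protein-coding genes between them, and Lag3 has Cd4 as its neighbor on chromosome 6. RefSeq promoter sequences (GRCm38.p6, the 250 bases before the start) were found for 5 of the 10, of which 3 are shown: those of Cd96 and Ctla4, which passed the test between the populations when the 14-month IL-15-/- mouse was left out, and that of Havcr2, whose mean signal was higher in IL-15-/- than in IL-15+/+ tumors in both populations. Capitals mark matches, on either strand, to the core motif of NFAT (GGAAA, read on the opposite strand as TTTCC) or to the AP-1 motif (TGANTCA), factors that T cell activation engages.
Cd96, chr16:46120249-46120498, minus strand: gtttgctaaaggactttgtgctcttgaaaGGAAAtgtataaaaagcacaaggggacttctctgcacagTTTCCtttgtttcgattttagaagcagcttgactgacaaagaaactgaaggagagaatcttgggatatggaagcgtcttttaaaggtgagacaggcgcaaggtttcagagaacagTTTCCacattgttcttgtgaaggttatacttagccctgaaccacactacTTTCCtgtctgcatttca
Ctla4, chr1:60908775-60909024, plus strand: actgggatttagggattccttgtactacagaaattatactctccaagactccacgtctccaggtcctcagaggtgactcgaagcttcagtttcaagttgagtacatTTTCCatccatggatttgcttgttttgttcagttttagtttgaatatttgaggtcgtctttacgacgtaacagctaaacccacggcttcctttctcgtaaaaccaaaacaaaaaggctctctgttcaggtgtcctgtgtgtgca
Havcr2, chr11:46454681-46454930, plus strand: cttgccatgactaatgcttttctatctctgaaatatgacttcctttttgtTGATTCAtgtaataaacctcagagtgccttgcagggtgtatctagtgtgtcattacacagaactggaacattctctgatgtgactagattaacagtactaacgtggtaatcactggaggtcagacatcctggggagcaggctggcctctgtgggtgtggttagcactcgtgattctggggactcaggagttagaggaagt
The NFAT core occurred 4 times before Cd96 and 1 time before Ctla4, and it occurred 2 times before Pdcd1 and 1 time before Cd27, whose sequences are not shown. Havcr2 had 0 matches to it and 1 AP-1 match, which the other 4 promoters lacked. Over all 32851 promoter windows of this length 55.6% held GGAAA, 1.59% held it at least 4 times, and 6.75% held TGANTCA. Neither motif can hold the other. A match is a description of letters only.

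The costimulatory receptors differed in how they spread over the 4 groups. Cd2 (probe set 10500677) was at 0.79 and 1.40 in CD16/32HI IL-15-/- and at 2.45 and 1.27 in CD16/32HI IL-15+/+ arrays, and at 1.72 and 1.40 in CD16/32LO IL-15-/- against 3.03 and 2.24 in CD16/32LO IL-15+/+ arrays, each pair giving replicate 1 before replicate 2. It was highest in the CD16/32LO arrays of IL-15+/+ tumors, with the 14-month CD16/32HI IL-15+/+ array lying between them. Cd28 (10346783) was low throughout, at -0.47 and -1.36 in CD16/32HI IL-15-/-, -0.74 and -1.11 in CD16/32HI IL-15+/+, -0.74 and -0.92 in CD16/32LO IL-15-/- and 0.14 and -0.59 in CD16/32LO IL-15+/+ arrays. Only the 0.14 was above the array median, and 4 of the 8 values were inside the range of the transcripts that are not expected, counted before rounding.

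Icos (10346799) was at 0.43 and 0.53 in CD16/32HI IL-15-/-, 0.20 and 0.62 in CD16/32HI IL-15+/+, -0.12 and 1.30 in CD16/32LO IL-15-/- and 1.77 and 0.75 in CD16/32LO IL-15+/+ arrays. In the CD16/32HI population the 4 arrays were close together and the genotypes overlapped, whereas the CD16/32LO arrays were spread widely within each genotype. Cd27 (10547985) was at -0.06 and -0.25 in CD16/32HI IL-15-/-, -0.24 and 0.44 in CD16/32HI IL-15+/+, -0.65 and 0.03 in CD16/32LO IL-15-/- and 0.34 and 0.64 in CD16/32LO IL-15+/+ arrays. Its IL-15-/- and IL-15+/+ arrays were separate in CD16/32LO cells and overlapped in CD16/32HI cells. Cd69 (10548333) was at 1.28 and 1.74 in CD16/32HI IL-15-/-, 0.50 and 1.07 in CD16/32HI IL-15+/+, 0.19 and 1.51 in CD16/32LO IL-15-/- and 2.08 and 1.34 in CD16/32LO IL-15+/+ arrays. Cd69 was thus the single member whose IL-15-/- signals both exceeded the IL-15+/+ signals in CD16/32HI cells.

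Among the inhibitory receptors, Ctla4 (10346790) was at 0.34 and -0.26 in CD16/32HI IL-15-/-, -0.31 and 0.02 in CD16/32HI IL-15+/+, -0.15 and 0.37 in CD16/32LO IL-15-/- and 1.01 and 0.71 in CD16/32LO IL-15+/+ arrays, the last 2 being the highest of the 8. Pdcd1 (10356866) was at -0.51 and -0.67 in CD16/32HI IL-15-/-, -0.50 and -0.22 in CD16/32HI IL-15+/+, -0.36 and -0.73 in CD16/32LO IL-15-/- and 0.04 and -0.05 in CD16/32LO IL-15+/+ arrays. Its whole range over the 8 arrays was 0.775, the smallest of the 10, and the IL-15-/- arrays lay below the IL-15+/+ arrays in both populations, in CD16/32HI cells of replicate 1 with a difference of only -0.01. Lag3 (10547906) was at -0.66 and -0.13 in CD16/32HI IL-15-/-, 0.01 and 0.34 in CD16/32HI IL-15+/+, -0.31 and -0.35 in CD16/32LO IL-15-/- and -0.48 and 0.02 in CD16/32LO IL-15+/+ arrays. The genotypes were separate in CD16/32HI cells and overlapped in CD16/32LO cells, the opposite of Cd27.

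Havcr2 (10375443) was far above the array median on all arrays, at 3.49 and 4.34 in CD16/32HI IL-15-/-, 3.74 and 3.26 in CD16/32HI IL-15+/+, 3.55 and 3.88 in CD16/32LO IL-15-/- and 2.90 and 3.61 in CD16/32LO IL-15+/+ arrays. It overlapped between genotypes in both populations. Cd96 (10439744) was at -1.54 and -1.57 in CD16/32HI IL-15-/-, -1.01 and -1.28 in CD16/32HI IL-15+/+, -1.32 and -0.97 in CD16/32LO IL-15-/- and -0.19 and -0.35 in CD16/32LO IL-15+/+ arrays. All 8 values were below the array median, and only the CD16/32LO arrays of IL-15+/+ tumors were above the range of the transcripts that are not expected.

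**Figure D1:**
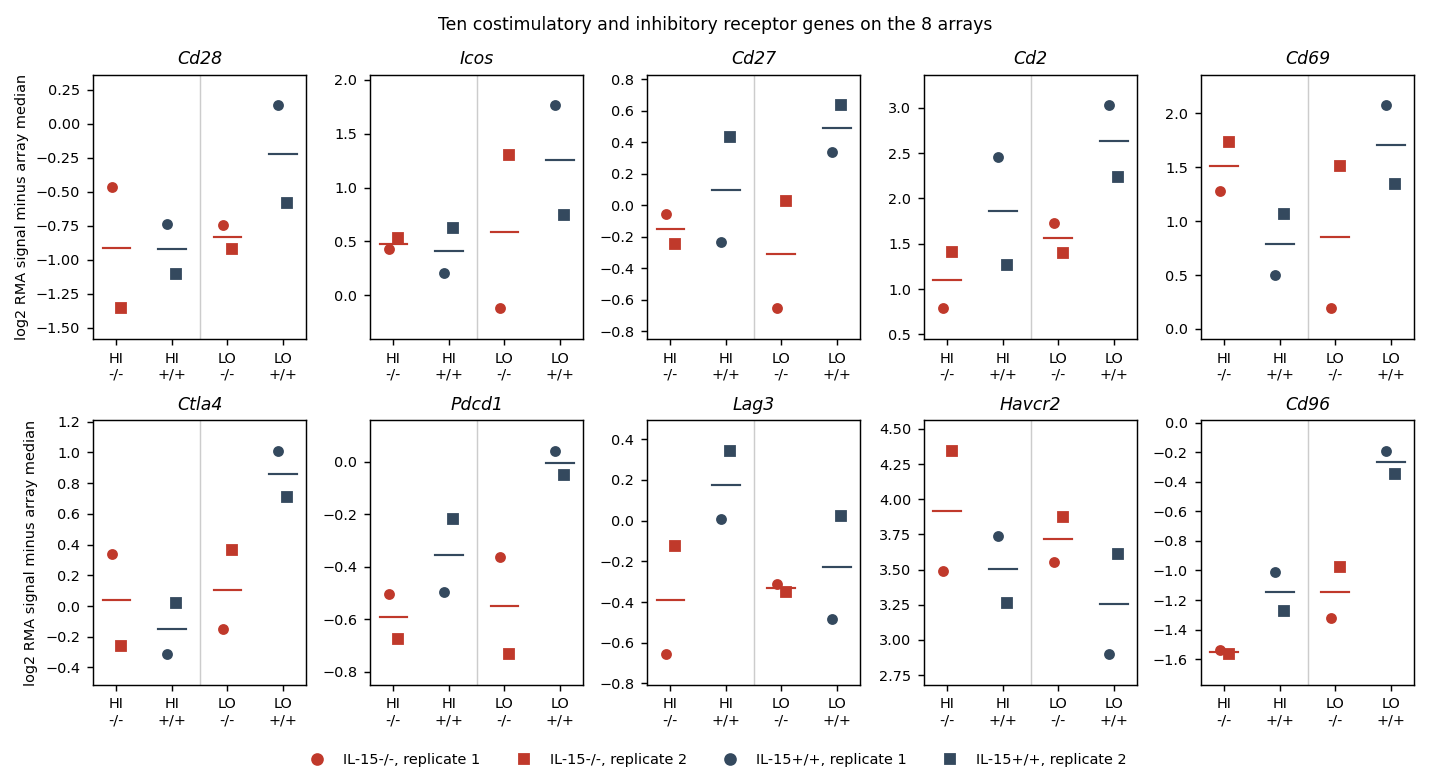
Log2 RMA signal minus the array median of the 10 receptor genes in the 4 groups (HI and LO, CD16/32HI and CD16/32LO; -/- and +/+, IL-15 genotype), replicate 1 drawn as circles, replicate 2 as squares and group means as lines. For Cd96 and Ctla4 the CD16/32LO IL-15+/+ arrays are the highest of the 8, and each panel has its own axis.

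In CD16/32LO cells 9 of the 10 receptors were lower by mean signal in IL-15-/- than in IL-15+/+ tumors, and none passed the test over all genes. In 6 of them, Cd28, Ctla4, Cd27, Cd96, Pdcd1 and Cd2, both IL-15-/- arrays lay below both IL-15+/+ arrays, and in 0 they lay above, where 12% of all 23410 probe sets were separated downward and 14.2% upward. The median of the 10 differences was -0.71, and that of all probe sets was 0.01. Cd2 averaged 1.56 ± 0.23 in IL-15-/- and 2.63 ± 0.56 in IL-15+/+ arrays (SD, n = 2 each), a difference of -1.07 (SE 0.441), or 2.11-fold lower. Cd96 averaged -1.15 ± 0.24 in IL-15-/- and -0.27 ± 0.11 in IL-15+/+ arrays, a difference of -0.88 (SE 0.208). Both IL-15-/- values of Cd96 were inside the range of the transcripts that are not expected, so that no fold is given. The 95% intervals of 5 differences excluded 0: Cd96 (-1.36 to -0.39), Ctla4 (difference -0.75, -1.42 to -0.08), Cd27 (-0.80, -1.53 to -0.08), Pdcd1 (-0.54, -1.04 to -0.05) and Cd2 (-2.10 to -0.05). These are the 5 with an unadjusted p under 0.05 toward lower, a count that 1.2% of all probe sets reached. Adjusted over all probe sets by limma with Benjamini-Hochberg, the p-value of all 10 was 0.9999, and 0 of the 10 were called where 0.0342% of all probe sets were (8, with 422 at an unadjusted p under 0.05). Icos (-0.67, -1.81 to 0.48), Cd69 (-0.86, -1.94 to 0.21), Cd28 (-0.61, -1.44 to 0.22), Lag3 (-0.10, -0.73 to 0.52) and Havcr2 (0.46, -0.39 to 1.30) had intervals that held 0.

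The size of these differences varied between the replicates. Within replicate 1, the single normalization set with both genotypes, the median of the 10 differences was -1.06. Within replicate 2 it was -0.36. Macrophage markers averaged 4.62 in the IL-15-/- and 2.71 in the IL-15+/+ CD16/32LO array of replicate 1, against 2.60 and 2.74 in replicate 2. Their part in these differences was not tested. Cd96 differed by -1.13 and -0.63, Ctla4 by -1.16 and -0.34, Cd27 by -1.0 and -0.61, Pdcd1 by -0.41 and -0.68, Cd2 by -1.31 and -0.84 and Cd28 by -0.88 and -0.34 in replicates 1 and 2. Icos differed by -1.89 and 0.55 and Cd69 by -1.89 and 0.16. With the 14-month IL-15-/- mouse left out the differences were -0.70 for Cd96, -0.49 for Ctla4, -0.46 for Cd27, -0.73 for Pdcd1, -1.24 for Cd2 and -0.70 for Cd28, resting on a single IL-15-/- mouse, and the adjusted p of all 10 was 1. Icos then differed by 0.04 and Cd69 by -0.20. The median of the 10 was -0.48 and that of all probe sets -0.01. Of the 10, 8 were below 0, as were 11895 of all 23410 probe sets.

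In CD16/32HI cells the receptors did not share a direction. By mean signal 5 were higher and 5 lower in IL-15-/- than in IL-15+/+ tumors, with a median of -0.11 where that of all probe sets was -0.05. The arrays of the genotypes were separated upward in 1 receptor, Cd69, and downward in 3, Cd96, Pdcd1 and Lag3, where 15.4% and 20.3% of all probe sets were. Cd69 averaged 1.51 ± 0.32 in IL-15-/- and 0.78 ± 0.40 in IL-15+/+ arrays (SD, n = 2 each), a difference of 0.73 (SE 0.461, 95% interval -0.35 to 1.80), and it was higher within replicate 1 by 0.78 and within replicate 2 by 0.67. Lag3 averaged -0.39 ± 0.38 in IL-15-/- and 0.17 ± 0.24 in IL-15+/+ arrays (difference -0.56, SE 0.268, -1.19 to 0.06), with -0.66 and -0.47 within the replicates. Cd96 averaged -1.55 ± 0.02 in IL-15-/- and -1.14 ± 0.19 in IL-15+/+ arrays (difference -0.41, SE 0.208, -0.89 to 0.08). The remaining differences were -0.77 for Cd2, 0.41 for Havcr2, -0.25 for Cd27, -0.23 for Pdcd1, 0.19 for Ctla4, 0.07 for Icos and 0.01 for Cd28. Cd2 and Havcr2 differed most between the replicates, Cd2 with -1.67 and 0.13 and Havcr2 with -0.25 and 1.08. limma called 0 of the 10, with adjusted p-values from 0.806 to 0.994, where it called 0.0171% of all probe sets (4, with 1293 at an unadjusted p under 0.05). With the 14-month IL-15-/- mouse left out, Cd69 differed by 0.95, Havcr2 by 0.84, Lag3 by -0.30, Cd2 by -0.46 and Icos by 0.12, and Cd28 (-0.43) and Ctla4 (-0.11) turned negative. The median of the 10 was then -0.31 and that of all probe sets 0.01. Of the 10, 3 were above and 7 below 0, where 11976 of all 23410 probe sets were above 0. These values rest on a single IL-15-/- mouse. By means, 0 of the 10 were over 3-fold different in either population, the threshold of the study's methods, where 0.218% of all probe sets were higher and 0.107% lower by that much in CD16/32HI cells and 0.0982% higher and 0.329% lower in CD16/32LO cells.

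The mean of the 2 arrays of each mouse does not depend on which array carries which population label. For Cd96 these means were -1.43 and -1.27 in the IL-15-/- mice and -0.60 and -0.81 in the IL-15+/+ mice, so that the genotypes did not overlap. The difference was -0.64 (SE 0.180, unadjusted p = 0.00642, adjusted p = 0.774 from limma). For Cd2 the means were 1.25 and 1.40 in the IL-15-/- mice and 2.74 and 1.75 in the IL-15+/+ mice, a difference of -0.92 (SE 0.293, adjusted p = 0.979), or 1.89-fold lower. Cd27 was at -0.36 and -0.11 in the IL-15-/- mice and at 0.05 and 0.54 in the IL-15+/+ mice, a difference of -0.53 (SE 0.213, 95% interval -1.01 to -0.04). Ctla4 was at 0.09 and 0.05 in the IL-15-/- mice and at 0.35 and 0.36 in the IL-15+/+ mice, a difference of -0.28 (SE 0.169, -0.67 to 0.10), small in size but even between the mice of a genotype. Pdcd1 differed by -0.39 and Lag3 by -0.33, and their mice were also separated, Lag3 only in the fourth decimal. Havcr2 was the single receptor whose IL-15-/- mice (3.52 and 4.11) both lay above the IL-15+/+ mice (3.32 and 3.44), with a difference of 0.44 (SE 0.222, -0.07 to 0.94). Without the 14-month IL-15-/- mouse the difference of Havcr2 was 0.73 (SE 0.254, 0.18 to 1.28, adjusted p = 0.672), that of Cd27 was -0.40 (-1.01 to 0.20) and that of Lag3 was -0.21. In all, 6 receptors were separated downward and 1 upward, where 17.2% and 14.2% of all probe sets were. limma called 0 of the 10 in the mouse means, where it called 0.0726% of all probe sets (17, with 944 at an unadjusted p under 0.05). Cd2 differed by -1.41 when the 12-month IL-15+/+ animal was dropped, a value resting on a single IL-15+/+ mouse. Over all the left-out mice its value ran from -1.41 to -0.43. The smallest two-sided p that an exact permutation test of 2 against 2 can give is 0.333, from 6 splits, so that none was run.

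**Figure D2:**
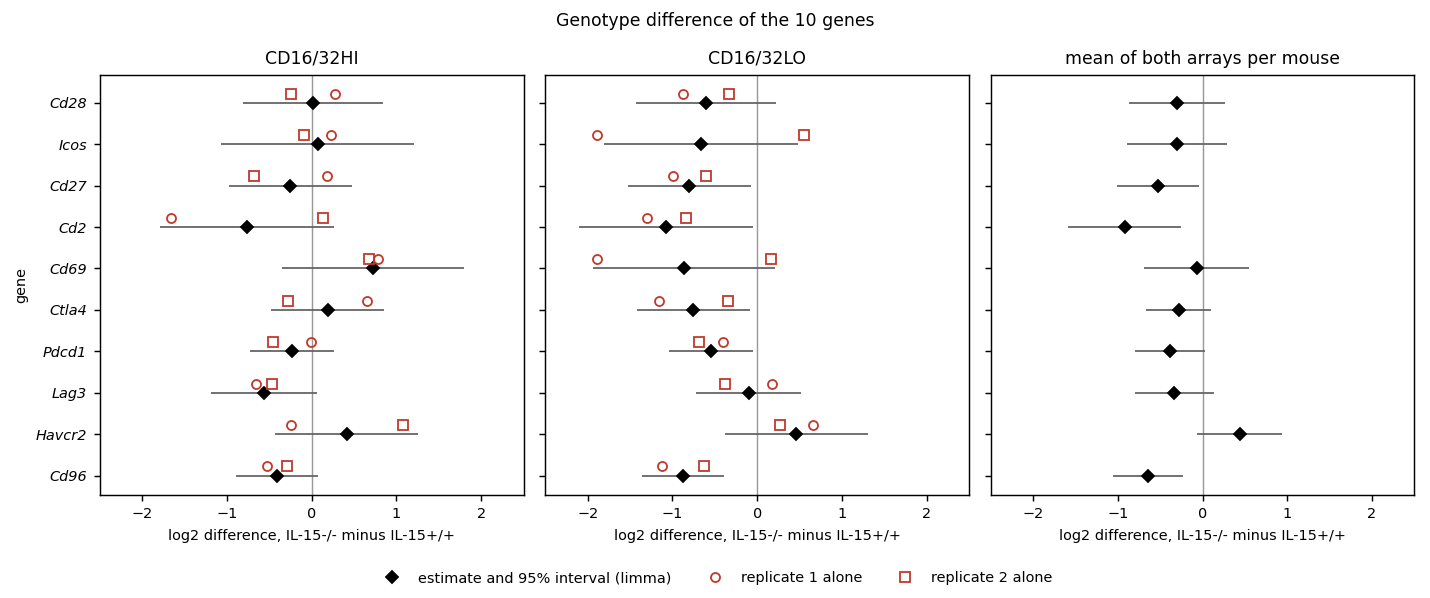
Log2 difference of IL-15-/- minus IL-15+/+ for the 10 receptors in CD16/32HI cells, in CD16/32LO cells and in the mouse means, with diamonds for the limma estimate, bars for its 95% interval and open symbols for each replicate alone. In CD16/32LO cells 9 of the 10 estimates are below 0 and 5 intervals exclude 0, whereas in CD16/32HI cells all 10 intervals include 0.

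Between the populations of the same mouse, 8 of the 10 receptors were lower by mean signal on the CD16/32HI side, and Lag3 and Havcr2 were higher. Cd96 was lower in CD16/32HI cells in 4 of 4 mice, by 0.22 and 0.59 in the IL-15-/- mice and by 0.82 and 0.93 in the IL-15+/+ mice, where 2.08% of all probe sets were lower in every mouse and 6% were higher in every mouse. Its mean difference was -0.64 (SE 0.154, unadjusted p = 0.00691, adjusted p = 0.886 from limma within mice). For Cd2 the difference was -0.62 (SE 0.195), with -0.94 and 0.01 in the IL-15-/- mice and -0.58 and -0.97 in the IL-15+/+ mice. Ctla4 showed the pattern of several others, with 0.49 in the 14-month and -0.62 in the 12-month IL-15-/- mouse and -1.32 and -0.69 in the IL-15+/+ mice. Cd28, Icos and Cd27 likewise were positive in that mouse and negative in the other 3, and Lag3 was negative in that mouse and positive in the other 3. limma called 0 of the 10 and 0 of all probe sets (0%, with 313 at an unadjusted p under 0.05).

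With the 14-month IL-15-/- mouse left out, 3 of the 10 passed, Cd96 (-0.78, SE 0.144, adjusted p = 0.00689), Ctla4 (-0.88, SE 0.172, adjusted p = 0.00915) and Cd28 (-0.61, SE 0.150, adjusted p = 0.0264), all lower in CD16/32HI cells of these 3 mice. In that comparison 13.8% of all probe sets passed, 7.5% higher and 6.26% lower in CD16/32HI cells. Icos (-0.82, adjusted p = 0.0526), Cd2 (-0.51, adjusted p = 0.117), Lag3 (0.34, adjusted p = 0.149), Cd27 (-0.35, adjusted p = 0.157), Cd69 (-0.54, adjusted p = 0.265), Havcr2 (0.32, adjusted p = 0.375) and Pdcd1 (-0.22, adjusted p = 0.425) did not pass.

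**Figure D3:**
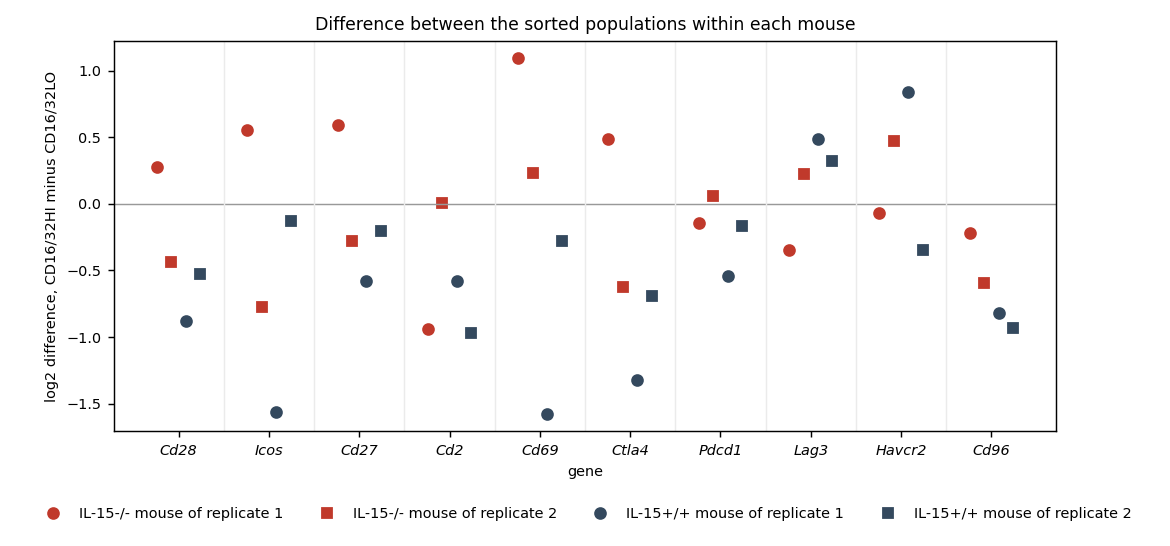
Log2 difference of CD16/32HI minus CD16/32LO cells within each of the 4 mice for the 10 receptors, red for IL-15-/- and dark for IL-15+/+ mice, circles for replicate 1 and squares for replicate 2. Cd96 is below 0 in all 4 mice, and for Cd28, Icos, Cd27 and Ctla4 the red circle alone lies above 0.

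The genotype difference was compared between the populations within mice. The difference in CD16/32HI minus that in CD16/32LO cells was above 0 in 8 of the 10 receptors, with a median of 0.51 where that of all probe sets was -0.07. It was 1.59 for Cd69 (SE 0.569, 95% interval 0.06 to 3.12), whose genotype difference was 0.73 in CD16/32HI and -0.86 in CD16/32LO cells, and 0.94 for Ctla4 (SE 0.483, -0.36 to 2.24). limma called 0 of the 10, with adjusted p-values from 0.878 to 0.984, and 0 of all probe sets (0%, with 663 at an unadjusted p under 0.05). Without the 14-month IL-15-/- mouse the value of Cd69 was 1.16 (SE 0.495) and that of Ctla4 was 0.38 (SE 0.365), and 9 of the 10 were above 0 with a median of 0.27. Without the 12-month IL-15-/- mouse the value was 1.50 for Ctla4 and 2.02 for Cd69. The IL-15-/- side then rested on a single mouse, the one whose population difference ran opposite to that of the others.

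T and NK cell markers were, like most of the receptors, highest by mean signal in the CD16/32LO IL-15+/+ arrays. The B cell, dendritic cell, regulatory T cell and neutrophil marker lists also had their highest group mean there, and the macrophage list did not. In the bulk RNA of a sorted population fewer cells of a type and less RNA per cell cannot be told apart. In CD16/32LO cells the mean level of 9 T cell markers was -0.28 and 0.20 in IL-15-/- arrays and 1.31 and 1.43 in IL-15+/+ arrays, and 7 of the 9 were separated downward, where 12% of all probe sets were. Cd8a fell by 1.76 (adjusted p = 0.0432 from limma), and Cd8b1 differed by -2.57 (adjusted p = 0.0562), both chains of the CD8 coreceptor. The call of Cd8a was lost with any of the 8 arrays left out (adjusted p from 0.0800 to 0.415) and without the 14-month IL-15-/- mouse (-1.75, adjusted p = 0.113). Cd4 was at -0.13 and -0.21 in IL-15-/- arrays and at -0.33 and -0.16 in IL-15+/+ arrays. The mean of 9 NK cell markers was -0.84 and -0.80 in IL-15-/- arrays and 0.91 and 1.23 in IL-15+/+ arrays, with 9 of 9 separated downward against the same 12%. The cytotoxic granule gene Gzma fell by 3.73 (adjusted p = 0.0292), by 3.84 without the 14-month IL-15-/- mouse (adjusted p = 0.0393), and its adjusted p ran from 0.0102 to 0.226 with 1 array left out, above the threshold without either CD16/32LO IL-15-/- array, without either CD16/32HI IL-15+/+ array and without the 14-month IL-15+/+ array of CD16/32LO cells. The mean of the 10 receptors in the same arrays was 0.18 and 0.55 in IL-15-/- and 1.06 and 0.83 in IL-15+/+ arrays. In CD16/32HI cells T cell markers averaged -0.12 and -0.18 in IL-15-/- and 0.31 and 0.22 in IL-15+/+ arrays, NK cell markers -0.99 and -0.84 in IL-15-/- and -0.18 and -0.13 in IL-15+/+ arrays, and the 10 receptors 0.31 and 0.38 in IL-15-/- and 0.41 and 0.44 in IL-15+/+ arrays. Regulatory T cells carry CTLA-4 and ICOS, and 6 of their markers averaged 0.04 and 0.11 in IL-15-/- and 0.33 and 0.16 in IL-15+/+ CD16/32LO arrays, where Foxp3 was at 0.33 and 0.10 in IL-15-/- and at 0.33 and -0.29 in IL-15+/+ arrays. The defining NK gene Ncr1 was at -1.81 to -0.75 over the 8 arrays, within the range of the transcripts that are not expected. Klrd1, Xcl1 and Prf1 of the same NK list were above that range on all 8 arrays, Klrd1 at 0.34 to 3.72. The other genes of the list reached into it on some arrays. Cd3e was at -0.23 to 0.78.

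Myeloid markers were far higher. In 3 of the 4 mice the macrophage list averaged higher in the CD16/32HI array, and the neutrophil list in the CD16/32LO array. The labels, which call the CD16/32HI cells malignant, name neither cell type. In CD16/32HI cells 8 macrophage markers averaged 2.53 and 4.83 in IL-15-/- and 4.53 and 4.40 in IL-15+/+ arrays, and 8 neutrophil markers averaged 4.57 and 1.48 in IL-15-/- and 1.83 and 2.12 in IL-15+/+ arrays. The macrophage markers of CD16/32LO cells averaged 4.62 and 2.60 in IL-15-/- and 2.71 and 2.74 in IL-15+/+ arrays, and the neutrophil markers 1.99 and 4.19 in IL-15-/- and 3.84 and 5.0 in IL-15+/+ arrays. Havcr2, which macrophages make, was above 2.89 on all 8 arrays, whichever marker list was high. B cell markers (5) averaged -0.24 and 0.53 in IL-15-/- and 1.23 and 0.72 in IL-15+/+ CD16/32LO arrays, and 7 dendritic cell markers 0.14 and 0.60 in IL-15-/- and 0.63 and 1.66 in IL-15+/+ CD16/32LO arrays. The part of these cell types in the receptor differences was not tested.

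**Figure D4:**
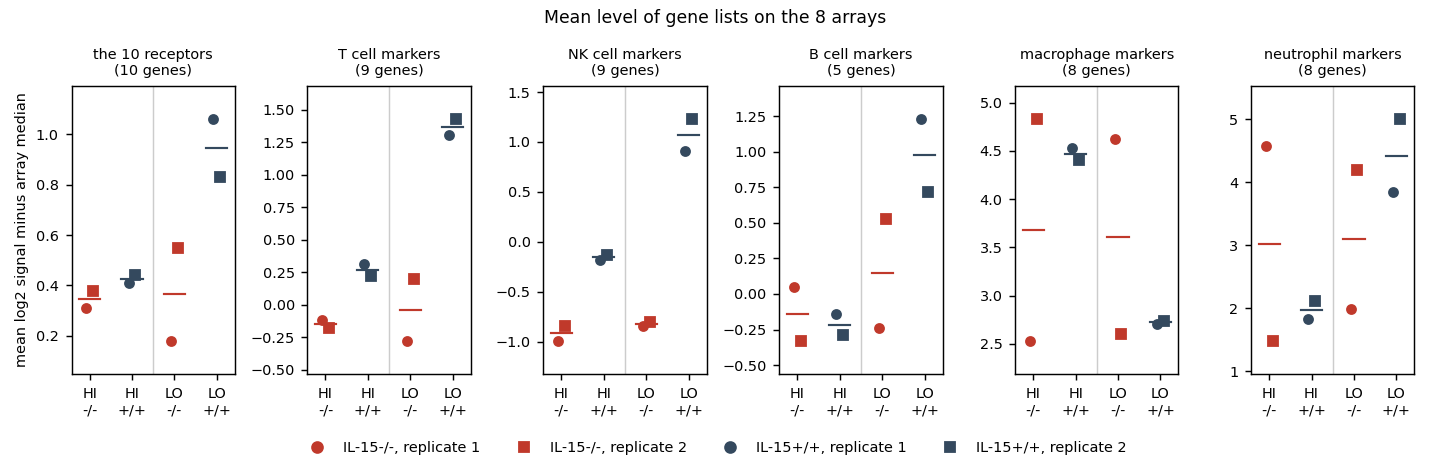
Mean log2 signal minus array median of the 10 receptors and of 5 lists of cell type markers in the 4 groups, replicate 1 drawn as circles, replicate 2 as squares and group means as lines. T, NK and B cell markers are highest in the CD16/32LO IL-15+/+ arrays, where neutrophil markers also have their highest group mean. The macrophage and neutrophil panels show the IL-15-/- circles on the opposite side from the squares.

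Of 19 other receptors of the same kind none was called in any of the 5 comparisons (background from 0% to 0.0726%). When the 14-month IL-15-/- mouse was left out, the populations differed in 10 of them, 3 called higher and 7 lower on the CD16/32HI side (background 7.5% and 6.26%). In CD16/32LO cells 7 were separated downward and 1 upward between the genotypes (background 12% and 14.2%), with a median difference of -0.19, or -0.04 without that mouse. Tigit, an inhibitory receptor that shares the ligand CD155 with CD96, was at 0.59 and 0.14 in IL-15-/- and at 1.48 and 1.52 in IL-15+/+ arrays, a difference of -1.14 (SE 0.226, adjusted p = 0.882 from limma). Btla, an inhibitory receptor of T and B cells, differed by -1.11 in CD16/32LO and by -0.79 in CD16/32HI cells, and Ly9 of the SLAM family by -0.73 in CD16/32LO cells. The values in CD16/32LO cells were -1.36 for Tigit, -0.69 for Btla and -0.09 for Ly9 with that mouse left out. In CD16/32HI cells 3 were separated downward and 2 upward (background 20.3% and 15.4%). Cd200r1, an inhibitory receptor of myeloid cells, differed by -0.57 and Cd244a, a SLAM family receptor that binds CD48, by 0.56, and without that mouse these were -0.16 and 0.36.

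Ligands of the receptors are made largely by antigen presenting cells. Of 20, 0 were called in any of the 5 comparisons (background from 0% to 0.0726%), and in CD16/32LO cells 2 were separated downward and 5 upward, where 12% and 14.2% of all probe sets were, with a median of 0.10. Between the populations 3 were called higher and 5 lower on the CD16/32HI side without the 14-month IL-15-/- mouse (background 7.5% and 6.26%). The CD28 and CTLA-4 ligands Cd80 and Cd86 differed by -0.35 (SE 0.585) and 0.57 (SE 0.663) in CD16/32LO cells and by 0.79 and -0.89 in CD16/32HI cells. These opposite directions rested on the 14-month IL-15-/- mouse, without which Cd80 and Cd86 differed by 0.24 and -0.27 in CD16/32LO cells, both signs turned, and by 0.10 and 0.02 in CD16/32HI cells. Cd274, which encodes the PD-1 ligand PD-L1, was at 2.99 and 1.96 in IL-15-/- and at 1.61 and 1.24 in IL-15+/+ CD16/32HI arrays, a difference of 1.04 (SE 0.380, adjusted p = 0.806), and at 2.06 and 2.79 in IL-15-/- and at 3.07 and 2.89 in IL-15+/+ CD16/32LO arrays, a difference of -0.55. The IL-15-/- signals of Cd274 were thus the higher ones in CD16/32HI cells and the lower ones in CD16/32LO cells, without overlap. Its differences were 0.53 in CD16/32HI and -0.19 in CD16/32LO cells when that mouse was left out. Icosl, the ICOS ligand, differed by 1.04 (SE 0.489) in CD16/32HI cells and Nectin1, an adhesion molecule of the nectin family, by -0.57, or by 0.61 and -0.42 without that mouse. Pvr, which encodes CD155, differed by 0.47 (SE 0.401) in CD16/32LO cells and Cd276 of the B7 family by 0.33. Cd70, the CD27 ligand, differed by -0.11 in CD16/32HI and -0.10 in CD16/32LO cells, and Cd48, the ligand of CD2 in the mouse, by -0.77 and -0.01. Cd70 was at -1.58 to -1.22 on the 8 arrays, inside the range of the transcripts that are not expected. With that mouse left out the difference of Cd48 was -0.03 in CD16/32HI and -0.60 in CD16/32LO cells, and that of Cd70 was -0.15 in CD16/32LO cells.

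Of 18 signaling genes downstream of the receptors none was called in the 5 comparisons (background from 0% to 0.0726%). Without the 14-month IL-15-/- mouse 2 were called higher and 5 lower on the CD16/32HI side of the population comparison (background 7.5% and 6.26%). Between the genotypes 4 were separated downward and 2 upward in CD16/32LO cells (background 12% and 14.2%). Sh2d1a, the SAP adaptor of SLAM family receptors, was at -1.61 and -1.31 in IL-15-/- and at -0.41 and -0.10 in IL-15+/+ arrays (SE of the difference 0.209, adjusted p = 0.542). Both of its IL-15-/- values were inside the range of the transcripts that are not expected. Prkcq, the protein kinase C of CD28 signaling, differed by -1.28 (SE 0.371) and the Src family kinase Fyn by -0.58, or by -0.85 and -0.40 without that mouse. In the 14-month IL-15-/- array Prkcq, at -1.56, was also inside that range. In CD16/32HI cells 3 were separated downward and 5 upward (background 20.3% and 15.4%). The CD28 adaptor gene Grap2 differed by -0.98, while Pstpip1, which binds the tail of CD2, differed by 0.80 and Ptpn6, the phosphatase SHP-1, by 0.73. These were -0.12, 0.17 and 0.39 with the 14-month IL-15-/- mouse left out.

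**Figure D5:**
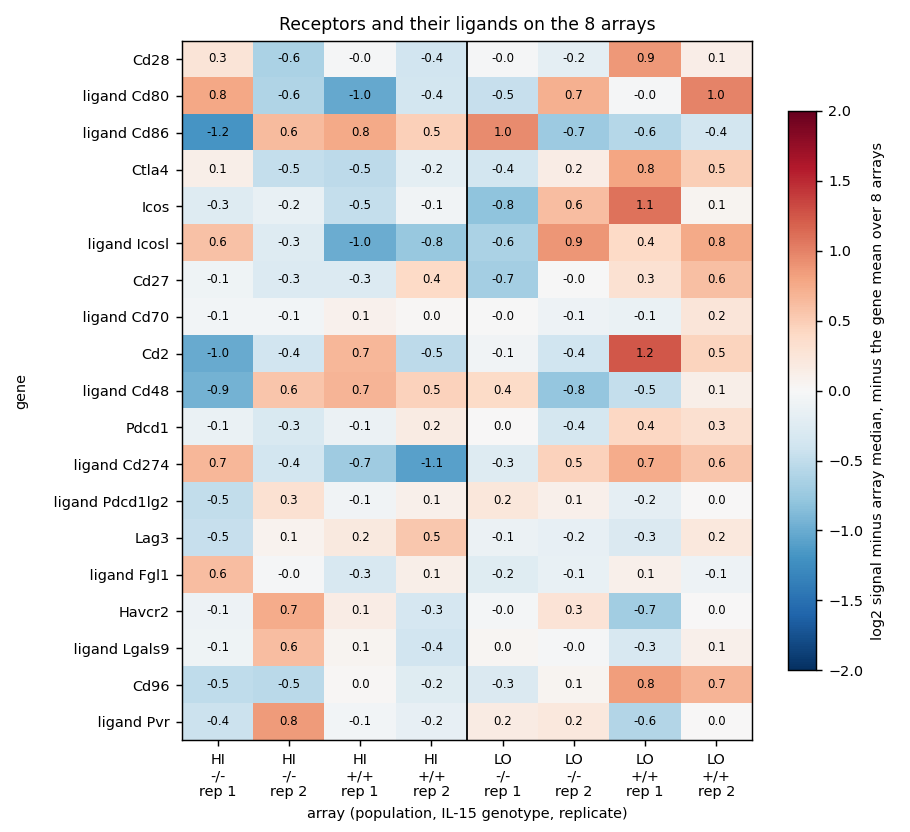
Log2 signal minus array median of 9 of the receptors and their ligands on the 8 arrays, as the difference from the mean of that gene over the arrays (red above, blue below, value printed in each cell). Each receptor stands above its ligands, except Ctla4, whose ligands Cd80 and Cd86 are drawn under Cd28. The CD16/32LO IL-15+/+ arrays on the right are above the mean for Cd28, Ctla4, Icos, Cd27, Cd2, Pdcd1 and Cd96, and the 2 columns of the 14-month IL-15-/- mouse differ from those of the 12-month one for Cd86 and Cd48.

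The genes most like each receptor were sought among 5744 probe sets with a range of at least 1 over the 8 arrays. The 8 arrays come from 4 mice and fall into clusters by population and genotype, so that Pearson's r is given as a description. Cd96 was most like Ctla2a (r = 0.98), the NK receptor gene Klrc1 (0.98) and the kinase gene Txk of T cells (0.97). Cd2 was most like the cytotoxic granule gene Gzmb (0.92), Ncr1 of NK cells (0.91) and the activation marker Cd83 (0.87). The Ncr1 signals lay within the range of the transcripts that are not expected. Ctla4 was most like Ets1 (0.98), a transcription factor of lymphocytes, Rabgap1l (0.97) and Rasgrp3 (0.97). Cd28 was most like Nr4a1 (0.98), an early gene of antigen receptor signaling, Slc26a10 (0.97) and Mcam (0.89), and Icos like the B cell genes Pax5 (0.96) and Vpreb3 (0.94) and like Golm2 (0.92). Havcr2 was most like the myeloid receptor gene Cd300c2 (0.96), Rabl6 (0.95) and Erh (0.94). Pdcd1 was most like an immunoglobulin kappa variable gene (0.97), the NK receptor gene Klra8 (0.96) and Mllt3 (0.93), and Cd27 like Gm5150 (0.95), Sympk (0.95) and Klk1b7-ps (0.94). Cd69 was most like Golm2 (0.90), 4932438A13Rik (0.89) and Lnpk (0.86), and Lag3 like Olfr1504 (0.98), Cebpg (0.96) and Mir484 (0.96). By Spearman's rho, 10 of the 30 genes were again among the 3 most like their receptor.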

How the data were processed

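The authors sorted CD16/32HI and CD16/32LO cells from tail tumors and deposited log2 signals of 35557 probe sets, made with RMA in Affymetrix Expression Console per the labels. Versions of these tools are not given in the sources used here. Here each array was centred on its median. Of the probe sets, 21789 carried 1 gene symbol, 1621 several and 12147 none in the platform annotation, and 21698 were matched to the reference by Entrez ID. The 23410 with a symbol were tested with limma (version 3.58.1 in R 4.3.3; lmFit and eBayes, Benjamini-Hochberg adjustment, called at an adjusted p under 0.05). The 8 arrays shared 1 estimate of the spread for the genotype differences. Mouse means were compared between genotypes, and the populations were compared with the mouse as a block. The functions were tested on simulated data. The number of arrays limits the precision. The p-values of the genotype differences in a population rest on the spread within the groups, with the 2 arrays of a mouse taken as independent. Those of the mouse means rest on the spread between mice of a genotype. Those of the comparisons within mice rest on how the population difference varied between mice. All 10 receptors are named, as are genes called in 3 lists (other receptors, ligands, downstream signaling) and, in each population, the 3 per list with the largest difference among those whose arrays do not overlap, and for each receptor the 3 probe sets with the highest Pearson r. Other ligands of the receptors (Cd80, Cd86, Cd70, Cd48) were named after their values were seen. The receptors and lists were chosen with earlier results of these data known. Some genes of the lists are not reported here.

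Alternatives were the deposited RMA values without centring, quantile normalization, all probe sets, a filter on low values, the mean of the probe sets of a gene, each array or mouse left out, replicate and normalization set as blocks, the 4 arrays of a population alone and a t-test between the genotypes. The t-test stood in for the ANOVA that the study's methods name, and it was used with their 3-fold threshold. Leaving out each array for Cd8a, Cd8b1 and Gzma, and the counts and medians of the lists without the 14-month IL-15-/- mouse, were chosen after seeing the data.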

Additional observations from a re-analysis of the deposited data

Results flagged for a closer look

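Cd274, which encodes the PD-1 ligand PD-L1, differed in opposite directions between the populations, with both CD16/32HI arrays of IL-15-/- tumors above, and both CD16/32LO arrays of IL-15-/- tumors below, those of IL-15+/+ tumors. The genotype difference in CD16/32HI minus that in CD16/32LO cells was 1.60 on the log2 scale (SE 0.636, 95% interval -0.11 to 3.30) and did not pass limma's test (unadjusted p = 0.0609, adjusted p = 0.878). Without the 14-month IL-15-/- mouse it was 0.72 (SE 0.319, -0.01 to 1.44, adjusted p = 0.998), with a genotype difference of 0.53 in CD16/32HI cells, against 1.04 with that mouse, and of -0.19 in CD16/32LO cells, against -0.55 with it. Between the populations of the 14-month IL-15-/- mouse, markers of macrophages and neutrophils ran opposite to the other mice, and their part in this value was not tested. Groups of 2 arrays are too small for a search for single outlying arrays.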

How the results depend on the processing

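The main differences called 4 probe sets in CD16/32HI cells, 8 in CD16/32LO cells, 17 in the mouse means and 0 in each of the other comparisons, and the receptors called were 0 in all 5. Of 645 receptor values recomputed under the alternatives, 618 kept direction and side of the threshold, 21 reversed, 6 newly passed and 0 were lost. The deposited values without centring gave 40 calls in the mouse means, with Cd69 at 0.058, and Lag3 at 0.017 in CD16/32LO cells. All probe sets of the file gave 6 calls in the mouse means. Without both arrays of the 14-month IL-15-/- mouse 7 and 16 probe sets were called in CD16/32HI and CD16/32LO cells, and Cd28 (-0.43) and Ctla4 (-0.11) in CD16/32HI and Icos (0.045) in CD16/32LO cells reversed. With the normalization set as a block 0 and 2 were called and Icos was at -0.46 in CD16/32HI cells. The 4 CD16/32LO arrays alone gave 3 calls, and the t-test gave 0 in either population after Benjamini-Hochberg adjustment (10 and 20 over 3-fold at an unadjusted p under 0.05 in CD16/32HI and CD16/32LO cells).

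The replicate numbers mark an age and no shared animal between genotypes, and same-numbered arrays deviated together with r = 0.056 in CD16/32HI and 0.137 in CD16/32LO cells. The fits with a replicate block called 3 probe sets in CD16/32HI cells, 3 in CD16/32LO cells and 48 in the mouse means, and 0 receptors. The comparisons within mice were also fitted without the mouse as a block, so that the arrays of a mouse were not paired. That alternative, chosen after seeing the data, called 0 probe sets and 0 receptors.

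With 1 array or mouse left out, calls ran from 2 to 3 in CD16/32HI cells, 2 to 8 in CD16/32LO cells, 22 to 126 in the mouse means (0 to 1 receptor, Cd2), 0 to 3220 between the populations (0 to 3 receptors) and 0 to 2685 for the difference of the genotype differences (0 to 2 receptors, Ctla4 and Cd69). In CD16/32HI cells Cd28 ran from -0.43 to 0.46, Icos from -0.14 to 0.28, Ctla4 from -0.11 to 0.48, Cd27 from -0.59 to 0.083 and Havcr2 from -0.013 to 0.84. In CD16/32LO cells Icos ran from -1.38 to 0.045 and Lag3 from -0.35 to 0.15. In the mouse means Icos ran from -0.68 to 0.081 and Cd69 from -0.51 to 0.37. Between the populations Cd27 ran from -0.35 to 0.040 and Cd69 from -0.54 to 0.35. For the difference of the genotype differences Havcr2 ran from -0.64 to 0.55 and Cd2 from -0.16 to 0.78. The causes were not tested, beyond the fewer arrays in each such fit. Low signals of Cd96 and Cd28 limit what their differences can show, since no detection calls were available.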
